A study of Mus musculus with 6 samples.

Results

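Histone and DNA methylation enzymes are the proteins that add methyl groups to histone tails and to cytosine in DNA, or take them off. They were taken here as the protein-coding genes of the table whose names begin with Kdm, Kmt2, Kmt5, Setd, Ehmt, Suv39h, Ezh, Prmt, Dnmt, Tet or Nsd, with Eed, Suz12 and Dot1l added. This gave 54 of the 41095 genes, of which 31 were methyltransferases of histones and other proteins (24 lysine and 7 arginine enzymes), 17 were demethylases and 6 acted on DNA. The rule goes by gene name alone, although it was set with earlier results of these data known.

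Methyltransferases of both kinds use S-adenosylmethionine as the donor of the methyl group. Most histone demethylases, and the TET proteins that oxidise 5-methylcytosine, instead use oxygen, iron and the metabolite 2-oxoglutarate, while the Kdm1 enzymes use a flavin. In CD8+ T cells these marks help to set which effector, memory and exhaustion genes can be read after the cell has been stimulated.

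RNA was sequenced from 6 libraries of wild-type mouse CD8+ T cells, 3 control and 3 given acetate, a short-chain fatty acid. In both groups the cells had been isolated from spleen by positive selection and cultured for 72 h with IL-2 at 30 U/mL on antibody-coated plates. The coating, left for 24 h, held anti-CD3 at 5 µg/mL against the antigen receptor complex and 2 µg/mL of anti-CD28 against the costimulatory receptor. The acetate group received acetate for 48 h at what reads as 5 mmol/L, although the unit is written unclearly and the time of addition is not given. The labels give 72 h of culture for all 6 libraries, whereas the design text calls the groups before and after acetate, and whether they differed in time in culture was not tested.

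Recovered read totals ran from 31098394 to 39140711 per library. Values are FPKM, reads scaled to gene length and a library total. The total implied by the values was 32877921, 36203543 and 36085078 in control and 39141865, 34648788 and 30623316 in acetate libraries. It lay above the recovered total in the 3 control libraries and below it in acetate libraries 2 and 3. With recovered totals, under limma's voom, the median log2 difference of acetate from control over all genes tested was -0.02, against 0.02 for FPKM. Correlations between libraries on the log2 scale were 0.9925 to 0.9934 within groups and 0.9835 to 0.9858 between groups. All 6 CD8 T cell markers were above 1 FPKM, with a summed level of 1625 to 1656 FPKM in control and 1678 to 1796 FPKM in acetate libraries. They differed in direction. Thy1 (443.6 ± 19.6 and 528.6 ± 40.5 FPKM) and Cd8a (308.4 ± 1.57 and 352.1 ± 12.3 FPKM) were higher with acetate without overlap. Cd8b1 was lower without overlap (321.2 ± 11.8 and 300.8 ± 10.1 FPKM), and Trac, Cd3d and Cd3e overlapped. Of the 6 B cell markers, 2 were above 1 FPKM, and their sum, most of it Ighm, was 68.3 to 74.5 FPKM in control and 84.9 to 94.7 FPKM in acetate libraries. The sum of 4 CD4 T cell markers was 21.3 to 22.4 FPKM in control and 16.3 to 17.4 FPKM in acetate libraries, and Zbtb7b accounted for the lower sum, at 13.0 ± 0.170 and 7.12 ± 0.388 FPKM. Cd4 itself had higher values without overlap, at 0.641 ± 0.119 FPKM in control and 0.944 ± 0.138 FPKM in acetate libraries. Its mean was below 1 FPKM, on 78 to 148 reads, and it was not tested. Cd40lg (8.28 ± 0.801 and 8.78 ± 0.557 FPKM) and Foxp3 overlapped. Markers of dendritic cells summed to 2.53 to 2.63 FPKM in control and 1.32 to 1.69 FPKM in acetate libraries, led by Zbtb46, with Siglech at 0. Markers of stroma summed to 4.99 to 5.36 and 3.93 to 4.29 FPKM. Pecam1 accounted for the lower stroma sum, at 4.98 ± 0.238 and 3.81 ± 0.0861 FPKM. Col1a1 was higher without overlap, at 0.0344 ± 0.0137 and 0.116 ± 0.0449 FPKM, on 4 to 38 reads and too low to test. Col1a2, Pdgfrb and Kdr overlapped. The part of these markers in the results was not tested, and in bulk RNA fewer cells of a type cannot be told apart from less RNA per cell. Nothing in the labels ties the libraries to distinct mice or wells, and p-values therefore reflect the spread among these libraries alone, which may be technical.

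With acetate, transcripts of 13 of the 50 testable methylation enzyme genes rose and those of 14 fell. Testable genes had a mean of at least 1 FPKM, and a call means an adjusted p below 0.05 by limma on log2(FPKM + 1), with Benjamini-Hochberg adjustment over all 10867 genes tested. Of all those genes 38.9% were called, 22.0% higher and 16.9% lower, against 26.0% and 28.0% of the enzyme genes. Acetate values lay above every control value in 18 enzyme genes and below every control value in 18, against 28.8% and 23.1% of all genes tested, or 51.9% in either direction. Among methyltransferases 9 of 30 were called higher and 5 lower, among demethylases 2 of 16 higher and 7 lower, and among DNA enzymes both tested methyltransferases were higher and both tested oxidases lower. The median log2 difference was -0.02 for methyltransferases, -0.08 for demethylases and -0.08 for DNA enzymes, against 0.02 for all genes tested. The differences were small, with absolute log2 sizes of 0.11 to 0.54 among called genes and a largest rise of 0.24.

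**Figure D1:**
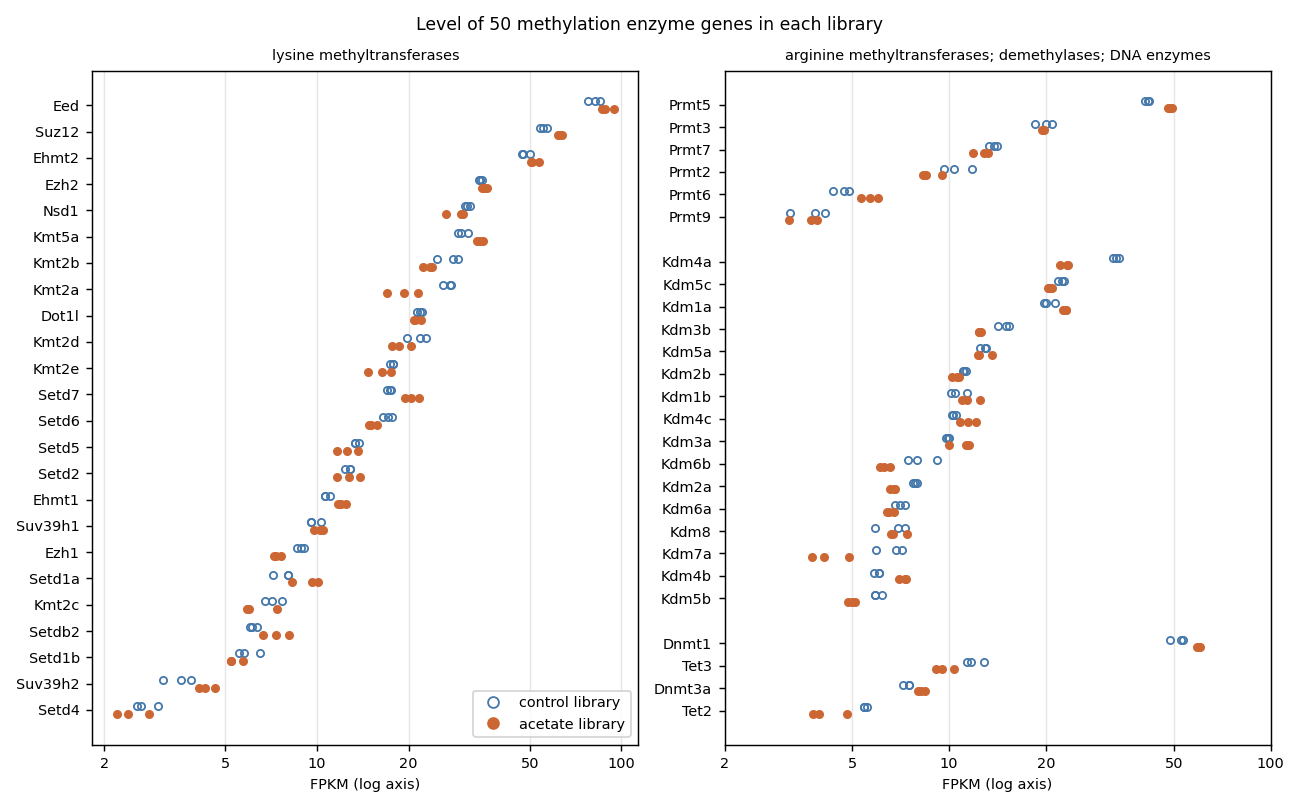
Level of each of the 50 tested methylation enzyme genes in every library, in FPKM on a log axis, with open circles for the 3 control and filled circles for the 3 acetate libraries. Kdm4a, Kmt2a and Kdm7a show filled circles well to the left of the open ones, while Prmt5, Dnmt1 and Suz12 show them to the right.

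The higher calls depended on how libraries were scaled. When FPKM values were rescaled to an equal sum in each library (TPM), 3 enzyme genes were called higher and 16 lower, against 12.8% and 22.5% of all genes (35.3% in either direction). All 14 lower calls were kept under TPM, and 10 of the 13 higher calls were lost, leaving Prmt5, Dnmt1 and Kdm4b. No called gene changed direction under any of 14 alternatives. Calls kept under all 14 were those 3 among the higher genes and 8 among the lower genes: Kdm4a, Kdm7a, Kmt2a, Tet3, Kdm6b, Kdm3b, Ezh1 and Kdm2a. TPM moved the median log2 difference of all genes tested from 0.02 to -0.05. Quantile scaling, cyclic loess scaling and voom moved it down too, to 0.01, 0.003 and -0.02. These settings favour lower calls, so keeping a lower call under them is a weaker check than keeping a higher one.

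DNA methyltransferases and oxidases differed in opposite directions. Dnmt1, which copies methylation onto the new strand after replication, stood at 53.3, 52.5 and 48.7 FPKM in control and 59.9, 59.0 and 60.5 FPKM in acetate libraries. All acetate values were above all control values, and the mean rose from 51.5 ± 2.45 to 59.8 ± 0.782 FPKM (SD, n = 3), a log2 difference of 0.21 (SE 0.043, limma adjusted p = 0.00717). Dnmt3a, which sets new methylation and in mice does so at memory-associated genes of effector CD8+ T cells, read 7.48, 7.20 and 7.51 FPKM in control and 8.39, 7.99 and 8.20 FPKM in acetate libraries. Its groups did not overlap, but the log2 difference was 0.13 (limma adjusted p = 0.0466), and the call was lost when any 1 of the 6 libraries was left out (adjusted p = 0.0778 to 0.129) and under TPM (0.398).

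Tet2 and Tet3 start the removal of DNA methylation by oxidising 5-methylcytosine. Tet2 was at 5.44, 5.44 and 5.54 FPKM in control and 4.80, 3.93 and 3.76 FPKM in acetate libraries. Acetate library 1 lay nearest to the control values, without overlap. The mean fell 1.31-fold, from 5.47 ± 0.0575 to 4.16 ± 0.560 FPKM (log2 difference -0.33, SE 0.080, limma adjusted p = 0.0145), and the call was lost without acetate library 2 (adjusted p = 0.0516). Tet3, at 12.8, 11.3 and 11.7 FPKM in control libraries, was at 10.3, 9.52 and 9.07 FPKM in acetate libraries, again with no overlap (log2 difference -0.28, limma adjusted p = 0.01). Tet1 had 0.542 ± 0.061 FPKM in control and 0.542 ± 0.0176 FPKM in acetate libraries, on 253 to 309 reads per library. It fell below the filter of 1 FPKM, and without that filter it was not called (limma adjusted p = 0.994). Dnmt3l, a cofactor of DNA methyltransferases that lacks activity, was too low to test, with 0 to 2 reads per library.

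The ratio of Dnmt3a to Tet2 within a library was 1.35 ± 0.0255 in control and 1.99 ± 0.221 in acetate libraries (n = 3), 1.47-fold higher, with no overlap. It was 1 of 11 ratios of opposing or partner genes that were compared, and does not depend on the scaling of a library. With 3 libraries against 3, the two-sided exact permutation test cannot go below p = 0.1, which this ratio reached, and its adjusted value over the 11 ratios was 0.183. The ratios of Dnmt1 to Dnmt3a and of Tet2 to Tet3 overlapped between groups.

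The table also holds a row without a symbol that its description ties to Dnmt3b, the other methyltransferase that sets new DNA methylation. It lay outside the naming rule. Its level rose from 2.89 ± 0.208 to 4.11 ± 0.396 FPKM (log2 difference 0.39, limma adjusted p = 0.0067) on at most 242 reads in a library.

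Among histone demethylases the lower calls included the 2 largest differences of the whole set, Kdm7a and Kdm4a. Kdm4a, an eraser of trimethylated H3K9 and H3K36, was at 33.8, 32.3 and 33.0 FPKM in control and 23.3, 22.2 and 23.4 FPKM in acetate libraries. The groups were far apart relative to their spread. The mean fell 1.44-fold, from 33.0 ± 0.754 to 22.9 ± 0.690 FPKM (log2 difference -0.51, SE 0.039, limma adjusted p = 0.000188). Kdm7a, which removes methyl groups from H3K9 and H3K27, was at 5.91, 7.14 and 6.84 FPKM in control and 4.87, 4.09 and 3.75 FPKM in acetate libraries. It fell 1.56-fold, from 6.63 ± 0.641 to 4.24 ± 0.573 FPKM (log2 difference -0.54, SE 0.095, limma adjusted p = 0.00397). In the C57BL/6NJ positions of the table, Kdm4a spans chr4:123738891-123786387 and Kdm7a chr6:38413502-38488047.

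Kdm4b and Kdm4c, the closest relatives of Kdm4a, did not fall. Kdm4b, which erases the same H3K9 mark, was at 6.05, 5.83 and 6.06 FPKM in control and 6.96, 7.30 and 7.32 FPKM in acetate libraries, with every acetate value above every control value. It rose from 5.98 ± 0.127 to 7.19 ± 0.205 FPKM (log2 difference 0.23, limma adjusted p = 0.00661). Kdm4c had a log2 difference of 0.13 that missed the threshold (limma adjusted p = 0.0645). Kdm4d, a germline-associated member, had 33 to 45 reads per library and was not tested.

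Of the 6 tested H3K9 erasers, 3 were called lower and 1 higher, against 16.9% and 22.0% of all genes tested. The third lower gene was Kdm3b, an eraser of mono- and dimethylated H3K9, at 15.4, 14.2 and 15.0 FPKM in control and 12.4, 12.4 and 12.5 FPKM in acetate libraries (log2 difference -0.24, limma adjusted p = 0.00415). Its relative Kdm3a was not called (log2 difference 0.13, limma adjusted p = 0.113).

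Of the 2 Kdm6 genes, the main erasers of H3K27 methylation, both had lower acetate values with no overlap, and 1 was called. Of all genes tested, 23.1% lay below control without overlap and 16.9% were called lower. Kdm6b (JMJD3), a stimulus-responsive enzyme that clears the Polycomb mark, was at 9.19, 7.43 and 7.96 FPKM in control and 6.54, 6.10 and 6.25 FPKM in acetate libraries. It fell 1.30-fold, from 8.19 ± 0.902 to 6.30 ± 0.223 FPKM (log2 difference -0.33, SE 0.074, limma adjusted p = 0.0111). Kdm6a (UTX) was at 7.01, 7.29 and 6.79 FPKM in control and 6.74, 6.52 and 6.38 FPKM in acetate libraries and was not called (log2 difference -0.09, limma adjusted p = 0.176).

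Among 5 H3K4 erasers, Kdm5b and Kdm5c were called lower and Kdm1a higher, against 16.9% and 22.0% of all genes tested. Kdm5b went from 5.97 ± 0.167 to 4.98 ± 0.122 FPKM (log2 difference -0.22, limma adjusted p = 0.01). Kdm5c went from 22.3 ± 0.532 to 20.6 ± 0.310 FPKM (log2 difference -0.11, limma adjusted p = 0.0424), a call lost without any 1 of the 6 libraries (adjusted p = 0.0515 to 0.137). Kdm1a (LSD1), the flavin-dependent H3K4 eraser, rose from 20.3 ± 0.847 to 22.9 ± 0.246 FPKM (log2 difference 0.17, limma adjusted p = 0.0157), and its call was lost without control library 1 or 3 (adjusted p = 0.054 to 0.0559). Kdm5a was nearly level (log2 difference -0.01, limma adjusted p = 0.877).

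Of 3 tested H3K36 erasers of the Kdm2 and Kdm8 families, only Kdm2a was called, against 38.9% of all genes tested. Kdm2a fell from 7.83 ± 0.129 to 6.67 ± 0.129 FPKM (log2 difference -0.20, limma adjusted p = 0.00826). Summed over all 17 demethylase genes, the level was 194.2 ± 1.34 FPKM in control and 179.4 ± 3.25 FPKM in acetate libraries, with no overlap. Kdm4a carried most of this difference, since without it the sums were 161.2 ± 0.605 and 156.4 ± 3.17 FPKM.

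**Figure D2:**
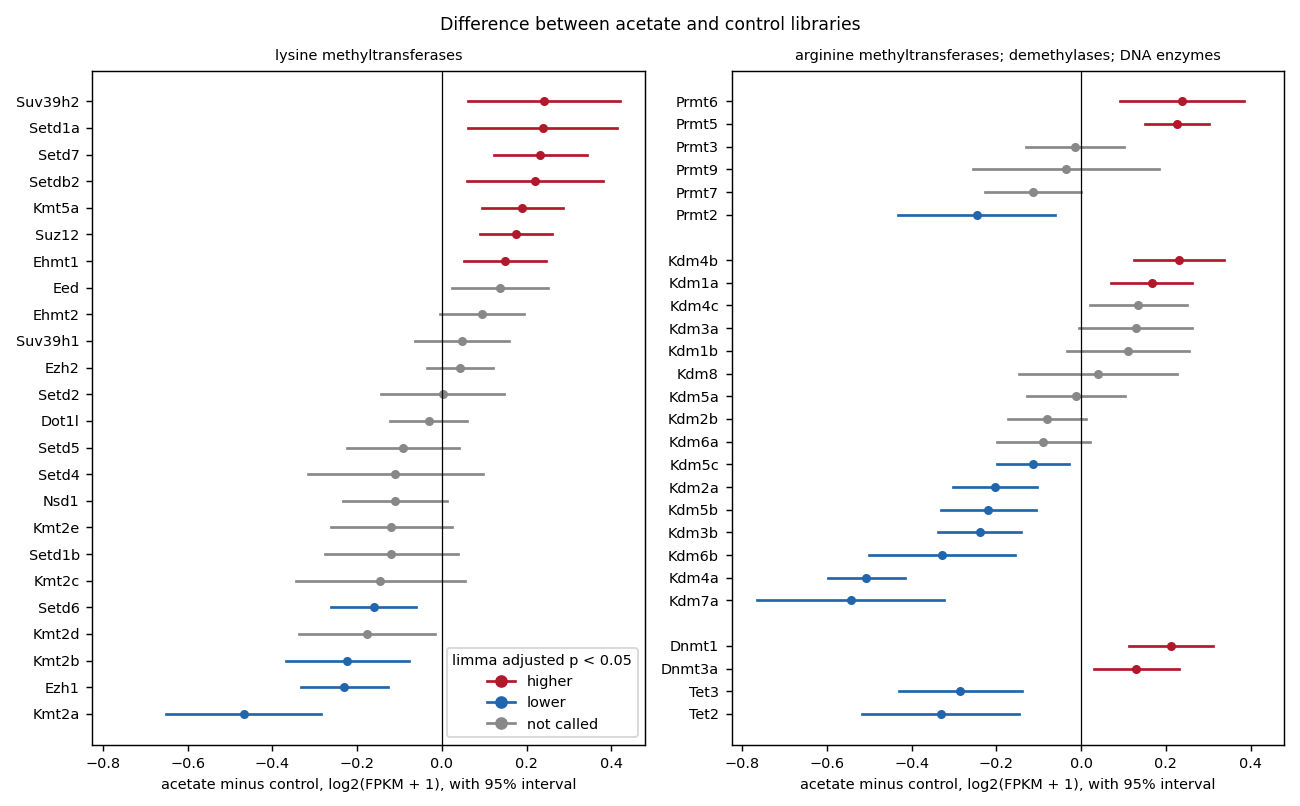
Log2 difference between acetate and control libraries for the 50 tested genes, on log2(FPKM + 1), with 95% intervals from limma and n = 3 per group. Red genes were called higher, blue genes lower and grey genes not called, and among demethylases 7 are blue and 2 red.

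Writers of H3K4 methylation were split. Kmt2a (MLL1), which keeps active promoters methylated, was at 27.3, 25.9 and 27.5 FPKM in control and 21.5, 19.3 and 16.9 FPKM in acetate libraries. Its acetate libraries spread widely but all lay below control. The mean fell 1.40-fold, from 26.9 ± 0.871 to 19.2 ± 2.27 FPKM (log2 difference -0.47, SE 0.078, limma adjusted p = 0.00335). The table places Kmt2a at chr9:44611150-44689540, in C57BL/6NJ positions.

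The close relative Kmt2b fell from 27.3 ± 2.22 to 23.2 ± 0.870 FPKM (log2 difference -0.22, limma adjusted p = 0.0258), and its call was lost without control library 1 or 3 or acetate library 2 or 3 (adjusted p = 0.0632 to 0.0798). The H3K4 enhancer methyltransferases Kmt2c and Kmt2d, and Setd1b and Kmt2e, had log2 differences of -0.15, -0.18, -0.12 and -0.12 and were not called. Kmt2d was at 22.9, 19.8 and 21.8 FPKM in control and 20.4, 18.6 and 17.7 FPKM in acetate libraries, with overlap (limma adjusted p = 0.0779). It was called lower under 6 of 14 alternatives, among them TPM (0.0474), quantile (0.0454) and cyclic loess scaling (0.0421) and voom (0.00415). Setd7, which monomethylates H3K4 and several other proteins, was at 17.3, 17.0 and 17.6 FPKM in control and 21.7, 20.3 and 19.4 FPKM in acetate libraries. It rose 1.19-fold, from 17.3 ± 0.304 to 20.5 ± 1.14 FPKM (log2 difference 0.23, SE 0.047, limma adjusted p = 0.00748). Setd1a, a main writer of promoter H3K4 trimethylation, was at 8.03, 7.16 and 8.03 FPKM in control and 10.05, 9.62 and 8.30 FPKM in acetate libraries (log2 difference 0.24, SE 0.076, limma adjusted p = 0.041). That call was lost without any 1 library except acetate library 3 (adjusted p = 0.067 to 0.119).

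Of 12 tested subunits of the complexes around these writers, a list that starts from COMPASS, 6 were called higher and 2 lower. Over all genes tested, 22.0% were called higher and 16.9% lower. Paxip1, which acts with Kmt2c and Kmt2d, rose from 6.82 ± 0.224 to 9.90 ± 0.208 FPKM (limma adjusted p = 0.000355). Dpy30, a subunit shared by all these complexes, rose from 73.2 ± 1.36 to 92.5 ± 4.22 FPKM (limma adjusted p = 0.00115). Wdr82, which belongs to the Setd1a and Setd1b complexes, went from 22.4 ± 1.07 to 27.6 ± 0.642 FPKM (limma adjusted p = 0.00235). The shared subunit Rbbp5, named after its values were seen, was among the lower genes, at 29.5 ± 0.905 FPKM in control and 25.3 ± 0.305 FPKM in acetate libraries.

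The 5 writers of H3K9 methylation analysed here, which do not include Setdb1, all had higher mean acetate levels. Of these, 3 were called higher and none lower, against 22.0% and 16.9% of all genes tested. Under TPM, however, none was called higher and Suv39h1 was at -0.02. Suv39h2, which trimethylates H3K9 in heterochromatin, was at 3.12, 3.86 and 3.57 FPKM in control and 4.61, 4.10 and 4.28 FPKM in acetate libraries (log2 difference 0.24, SE 0.077, limma adjusted p = 0.0419). Setdb2, which also trimethylates H3K9, went from 6.16 ± 0.159 to 7.35 ± 0.734 FPKM (log2 difference 0.22, limma adjusted p = 0.0394). Ehmt1 (GLP), which dimethylates H3K9, went from 10.8 ± 0.245 to 12.05 ± 0.360 FPKM (log2 difference 0.15, limma adjusted p = 0.0253).

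These 3 calls were fragile. The Suv39h2 call was lost without any 1 library except control library 2 (adjusted p = 0.0636 to 0.117), the Setdb2 call without any except acetate library 2 (0.0686 to 0.106), and the Ehmt1 call without control library 2 or 3 or acetate library 1 or 2 (0.0622 to 0.0798). Suv39h1, which restrains stem-like genes in effector CD8+ T cells of mice, was not called (9.79 ± 0.422 and 10.2 ± 0.357 FPKM, limma adjusted p = 0.467). Ehmt2 (G9a), the partner of Ehmt1, was not called either (48.2 ± 1.76 and 51.5 ± 1.77 FPKM, limma adjusted p = 0.121). Suv39h2 lies opposite the gene Dclre1c, and because the use of strand in counting is not given, reads of such overlapping genes cannot be told apart.

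Polycomb repressive complex 2 places the repressive H3K27 mark through Ezh2 or Ezh1, with Eed and Suz12 as core subunits. Ezh2 was at 34.3, 34.1 and 34.8 FPKM in control and 34.9, 35.3 and 36.1 FPKM in acetate libraries. Its values did not overlap but the log2 difference was 0.04 with a 95% interval of -0.03 to 0.12 (limma adjusted p = 0.345), and it was -0.03 under TPM scaling. Ezh1, the form that prevails in resting cells, was at 8.84, 8.62 and 9.06 FPKM in control and 7.62, 7.21 and 7.32 FPKM in acetate libraries (log2 difference -0.23, limma adjusted p = 0.00569).

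Suz12 was at 54.0, 57.1 and 55.1 FPKM in control and 63.9, 62.2 and 61.8 FPKM in acetate libraries, a log2 difference of 0.17 (limma adjusted p = 0.00817), with the call lost under TPM, quantile and cyclic loess scaling (adjusted p = 0.0891 to 0.125). Eed, which reads the mark that the complex writes, was at 81.9, 85.0 and 77.6 FPKM in control and 86.6, 88.3 and 94.2 FPKM in acetate libraries. Its groups did not overlap but it missed the threshold (log2 difference 0.14, limma adjusted p = 0.0606). Of 8 tested accessory genes, 1 was called higher and 2 lower, against 22.0% and 16.9% of all genes tested. Rbbp7, a histone chaperone, rose from 128.9 ± 6.70 to 155.2 ± 4.47 FPKM, and 2 genes that help recruit the complex fell. Aebp2 was at 68.6 ± 2.77 FPKM in control and 58.9 ± 1.72 FPKM in acetate libraries (limma adjusted p = 0.00678), and Jarid2 at 2.91 ± 0.0339 and 2.30 ± 0.162 FPKM (limma adjusted p = 0.0234).

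The ratio of Ezh2 to Ezh1 was 3.89 ± 0.0588 in control and 4.81 ± 0.198 in acetate libraries. Against the Kdm6 erasers, Ezh2 stood at a ratio of 4.23 ± 0.449 to Kdm6b in control and 5.64 ± 0.260 in acetate libraries, and at 4.90 ± 0.224 and 5.42 ± 0.242 to Kdm6a. All 3 ratios were higher in every acetate library than in any control library, which gives the smallest exact permutation p that 3 against 3 allows, 0.1, and 0.183 after adjustment over 11 ratios. Ezh2 to Eed and Suz12 to Eed overlapped between the groups.

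**Figure D3:**
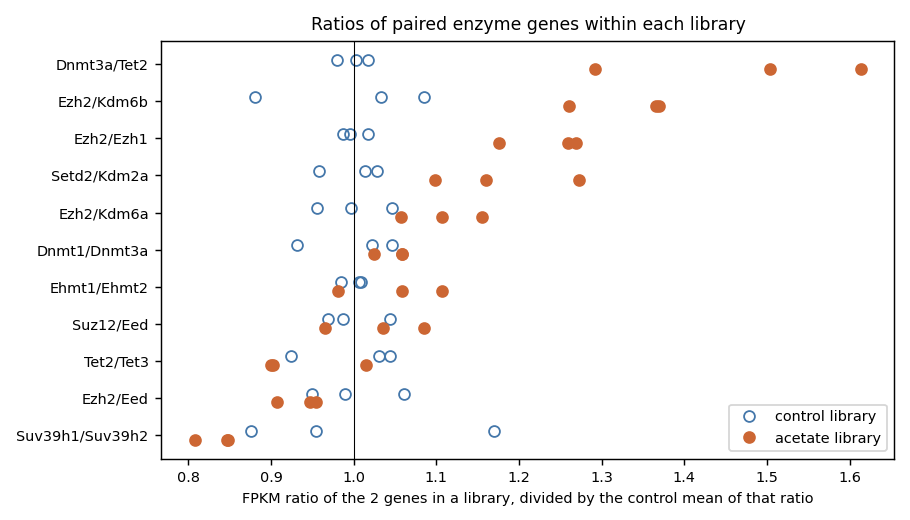
Ratio of FPKM of paired enzyme genes in each library, divided by the control mean of that ratio, with open circles for control and filled circles for acetate libraries. Dnmt3a/Tet2, Ezh2/Kdm6b, Ezh2/Ezh1, Setd2/Kdm2a and Ezh2/Kdm6a lie above control in all 3 acetate libraries and Suv39h1/Suv39h2 lies below.

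The remaining lysine methyltransferases gave few calls. Kmt5a, which monomethylates H4K20 as cells divide, rose from 30.0 ± 1.16 to 34.3 ± 0.801 FPKM (log2 difference 0.19, limma adjusted p = 0.00958), a call lost under the same 3 scalings (adjusted p = 0.0603 to 0.114). Setd6, known in human cells for methylating the NF-kappaB subunit RelA, fell from 17.1 ± 0.612 to 15.2 ± 0.464 FPKM (log2 difference -0.16, limma adjusted p = 0.0221), a call lost without control library 2 or 3 or acetate library 1 or 2 (adjusted p = 0.0559 to 0.073). Setd2, the writer of H3K36 trimethylation, was level (12.7 ± 0.278 and 12.7 ± 1.12 FPKM, limma adjusted p = 0.985), and the H3K36 dimethyltransferase Nsd1 had a log2 difference of -0.11 that was not called. Dot1l, the H3K79 methyltransferase, was not called (21.7 ± 0.465 and 21.3 ± 0.649 FPKM, limma adjusted p = 0.564). Neither were Setd4 and Setd5 (log2 differences -0.11 and -0.09, limma adjusted p = 0.363 and 0.235).

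Under older symbols, outside the naming rule, lay Whsc1 and Whsc1l1, described in the table as Nsd2 and Nsd3. These H3K36 methyltransferases differed in opposite directions on FPKM as reported, and their calls under TPM are not given. Whsc1 rose from 10.99 ± 0.263 to 12.7 ± 0.405 FPKM (limma adjusted p = 0.00951) and Whsc1l1 fell from 11.6 ± 0.526 to 9.66 ± 0.457 FPKM (limma adjusted p = 0.00968). The H4K20 enzymes listed as Suv420h1 and Suv420h2 were not called (limma adjusted p = 0.899 and 0.166), and neither was a row described as Setd3 (0.934).

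Of 6 tested arginine methyltransferases, 2 were called higher and 1 lower, against 22.0% and 16.9% of all genes tested. Prmt5, the main source of symmetric dimethylarginine on histones and splicing proteins, was at 41.9, 41.5 and 40.7 FPKM in control and 47.9, 49.2 and 48.5 FPKM in acetate libraries. Both groups were tight and well apart. The mean rose from 41.3 ± 0.604 to 48.5 ± 0.675 FPKM (log2 difference 0.23, SE 0.033, limma adjusted p = 0.00191).

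Prmt6, which dimethylates arginine asymmetrically on histone H3, was at 4.33, 4.89 and 4.71 FPKM in control and 5.99, 5.67 and 5.31 FPKM in acetate libraries (log2 difference 0.24, SE 0.063, limma adjusted p = 0.0211). Its call was lost without control library 1 or 3 or acetate library 1 or 2 (adjusted p = 0.051 to 0.0685). Prmt2 fell from 10.6 ± 1.09 to 8.76 ± 0.664 FPKM (log2 difference -0.25, limma adjusted p = 0.0422), with the call lost without control library 1 or 2 or acetate library 1 or 2 (adjusted p = 0.0813 to 0.117). Prmt3, Prmt7 and Prmt9 were not called. Prmt8, a brain enzyme, had 0 reads in every library, which allows at most 0.036 FPKM at 3 reads, for counting error only. The row described as Prmt1 was at 0.684 ± 0.0501 and 0.792 ± 0.110 FPKM on at most 43 reads and overlaps another row of the same description with 0 reads, so its level is uncertain.

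Genes that supply or assist these enzymes, and genes of the cell cycle, were described from further lists, on FPKM as reported. Over all genes tested, 22.0% were called higher and 16.9% lower. Of 13 tested DNA methylation partners and readers, 4 were called higher and 2 lower. Hells, a remodeller that helps Dnmt1 keep methylation, rose from 22.7 ± 1.11 to 36.6 ± 1.04 FPKM (limma adjusted p = 0.000122). Trim28, a corepressor that recruits Setdb1 in heterochromatin, went from 56.7 ± 1.86 to 71.0 ± 1.64 FPKM (limma adjusted p = 0.000943). Uhrf2, a relative of the Dnmt1 partner Uhrf1, went down from 17.8 ± 0.115 to 15.5 ± 0.531 FPKM (limma adjusted p = 0.00868). Of 10 tested genes of methyl donor supply, 3 were higher and 2 lower. Mat2a, which makes S-adenosylmethionine, rose from 72.5 ± 1.13 to 116.8 ± 0.884 FPKM (limma adjusted p = 5.96e-05). Mtap, which salvages methionine from a by-product of polyamine synthesis, went up from 43.5 ± 0.924 to 57.2 ± 0.365 FPKM (limma adjusted p = 0.000268). All 15 tested genes of an S phase list were called higher, with a median log2 difference of 0.56, and 1 of 14 tested genes of a G2 and M phase list was higher and 2 lower. The lowest p-values in the S phase list belonged to the cyclin Ccne1, from 28.5 ± 1.33 to 48.6 ± 1.48 FPKM (limma adjusted p = 9.89e-05), the replication helicase subunit Mcm4, from 50.4 ± 0.835 to 78.9 ± 3.03 FPKM (limma adjusted p = 0.000108), and the cyclin Ccne2, from 10.2 ± 0.793 to 21.3 ± 1.20 FPKM (limma adjusted p = 0.000119). Cdk1, the mitotic kinase, went from 14.8 ± 0.0689 to 18.1 ± 0.410 FPKM (limma adjusted p = 0.00139), Kif23, a kinesin of cytokinesis, from 13.9 ± 0.992 to 11.1 ± 0.204 FPKM (limma adjusted p = 0.00451), and the proliferation marker Mki67 from 30.5 ± 0.254 to 26.2 ± 1.78 FPKM (limma adjusted p = 0.0147). Whether the cell cycle had a part in the enzyme differences was not tested.

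Promoters of the enzyme genes were described without a test. RefSeq windows of 250 bases before to 50 after the gene start, on GRCm38.p6, were found for 45 of the 54 genes. E2F-type motifs, spelled TTTGGCGC, TTTCCCGC, TTTGCCGC or TTTCGCGC and read on both strands, occur in 2.27% of all 32851 windows of this length, and in at least 1 window of 2.61% of the 27025 genes with a window. They were in 4 of the 45 enzyme genes: Dnmt1, Suz12, Ezh2 and Suv39h1. Of these, Dnmt1 and Suz12 were among 12 higher genes with a window, and Ezh2 and Suv39h1 among 19 that were not called. None of 10 lower genes with a window held a match. At a share of 2.61% so few genes would mostly hold none, so these counts cannot set the groups apart. The 4 windows below show 3 with a match and Kdm4a, a lower gene, with none, and capitals mark the match.

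The Dnmt1 window, chr9:20952574-20952873 on the minus strand, is 1 of several listed starts. It holds matches on both strands, at -219 and 34 relative to the start:
Dnmt1: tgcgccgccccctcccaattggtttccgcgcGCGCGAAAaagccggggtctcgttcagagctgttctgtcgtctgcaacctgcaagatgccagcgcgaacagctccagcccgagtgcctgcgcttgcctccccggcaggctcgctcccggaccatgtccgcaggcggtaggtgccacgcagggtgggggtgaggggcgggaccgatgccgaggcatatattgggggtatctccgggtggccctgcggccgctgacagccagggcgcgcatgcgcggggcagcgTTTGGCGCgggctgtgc
The Suz12 window, chr11:79992856-79993155 on the plus strand, holds a match at -219:
Suz12: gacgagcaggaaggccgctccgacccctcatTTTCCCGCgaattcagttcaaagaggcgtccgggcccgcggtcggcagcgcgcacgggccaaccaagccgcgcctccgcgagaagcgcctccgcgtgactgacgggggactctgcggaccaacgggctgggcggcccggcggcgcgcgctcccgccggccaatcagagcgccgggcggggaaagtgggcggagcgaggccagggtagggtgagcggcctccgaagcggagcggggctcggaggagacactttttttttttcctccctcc
The Ezh2 window, chr6:47594981-47595280 on the minus strand, holds a match at 4:
Ezh2: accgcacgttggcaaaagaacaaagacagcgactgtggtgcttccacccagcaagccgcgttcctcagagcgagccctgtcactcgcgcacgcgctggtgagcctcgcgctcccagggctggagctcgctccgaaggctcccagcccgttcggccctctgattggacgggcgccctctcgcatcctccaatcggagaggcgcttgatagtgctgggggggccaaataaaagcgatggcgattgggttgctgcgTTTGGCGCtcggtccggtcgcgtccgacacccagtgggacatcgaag
The Kdm4a window, chr4:118179994-118180293 on the minus strand, holds none:
Kdm4a: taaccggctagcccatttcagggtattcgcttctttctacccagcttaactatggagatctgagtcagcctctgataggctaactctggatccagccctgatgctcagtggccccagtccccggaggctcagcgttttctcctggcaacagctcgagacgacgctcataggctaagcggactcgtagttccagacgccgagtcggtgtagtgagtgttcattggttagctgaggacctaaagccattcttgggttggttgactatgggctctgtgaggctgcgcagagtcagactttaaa

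These windows were rich in CpG, as promoters of broadly used genes are. The median count of CpG per window was 26.0 for the enzyme genes, 29.0 for those called higher and 22.5 for those called lower, against 7.0 for all genes with a window. The E2F-type letters each contain CG, and the motif shares over all genes were not matched for CpG. A letter match is not a bound site, and its absence says only that these letters are not in the window. The amino acid response motif TGATGNAA, read on both strands, is in 3.97% of all windows and in 4.51% of genes with a window, and was found in 1 enzyme gene, Kdm1a.

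The enzyme genes are long, with a median length of 7152.5 bases against 3455 for all genes tested, and the difference with acetate went down with length. For all genes, the median log2 difference went from 0.05 under 2000 bases to -0.08 at 16000 bases and over (124 genes). Of 22 enzyme genes of 4000 to 8000 bases, 10 were called higher and 4 lower, and of 22 of at least 8000 bases, 2 were higher and 8 lower. Of all genes tested, 22.2% were higher and 19.8% lower at 4000 to 8000 bases, 14.5% and 22.3% at 8000 to 16000 bases, and 6.45% and 25.8% at 16000 bases and over. The Spearman correlation of length and difference was -0.49 over the 50 tested genes and -0.11 over all 10867, as a description across genes that share the same libraries. The 1245 genes of at least 8000 bases had median deviations of 0.01, 0.01 and 0.03 in control and 0.03, -0.02 and -0.06 in acetate libraries, so the 3 acetate libraries were not alike.

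With the length trend subtracted, an alternative chosen after the data were seen, 12 enzyme genes were called higher and 13 lower, against 20.3% and 19.0% of all genes (39.3% in either direction). The calls of Kdm5b, Suv39h2 and Setdb2 were lost (limma adjusted p = 0.0971, 0.0521 and 0.0576) and Kdm4c was called higher (0.0474). Kdm7a, Kdm4a, Kmt2a and Tet2 remained called lower. Whether length had a part in the remaining differences was not tested.

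**Figure D4:**
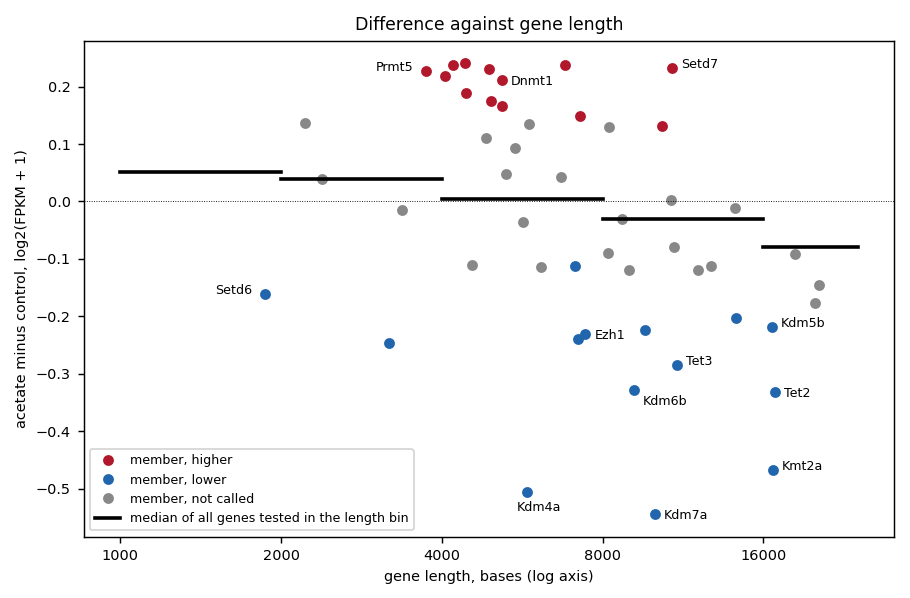
Log2 difference between acetate and control libraries against gene length in bases, on a log axis, for the 50 tested genes, with bars for the median of all genes in each length bin. The first bar stands for all genes under 2000 bases (0.05) and the last for all of 16000 bases and over (-0.08), and Kmt2a, Tet2 and Kdm7a lie below the bar of their length.

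**Figure D5:**
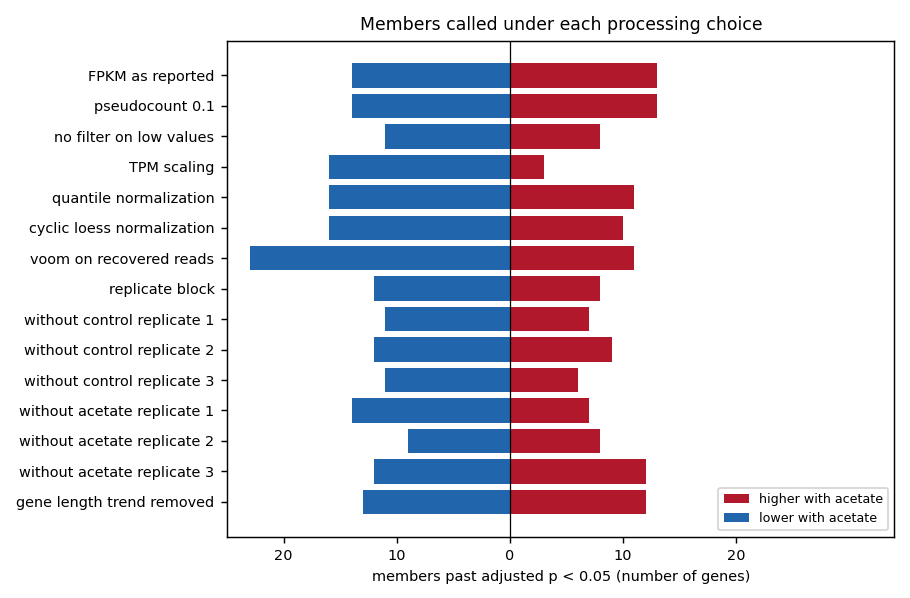
Number of enzyme genes called higher (right) and lower (left) with acetate, at limma adjusted p below 0.05, for the values as reported and for each of 14 alternatives. Higher calls run from 3 under TPM scaling to 13 as reported, and lower calls from 9 without acetate library 2 to 23 with read-based weights.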

How the data were processed

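RNA of 6 libraries, 3 control and 3 acetate by their titles, was analysed. The authors deposited 1 table of FPKM for 41095 genes. The submitters' processing notes name cutadapt 1.18, HISAT2 2.1.0 and the build mm10. How reads were counted, and whether by strand, is not given in the sources used, while the table's identifiers and positions are those of a C57BL/6NJ annotation. FPKM times gene length gave whole reads for 100% of values (tolerance 0.01), and these recovered reads were used only in an alternative. FPKM per length allow levels to be compared between genes, and reads set the precision of low ones.

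Genes whose mean over the libraries reached 1 FPKM were compared as log2(FPKM + 1) by limma 3.58.1 in R 4.3.3, with an abundance trend and group as the only term, two-sided, at a threshold of 0.05. The log2 differences understate changes of low genes. Ratios were compared with exact permutation tests. The alternatives were a pseudocount of 0.1, no filter, TPM, quantile and cyclic loess scaling, limma's voom on recovered reads, a replicate block and leaving out each library. The enzyme genes, the lists and the ratios were chosen with earlier results of these data known. Named were every enzyme gene past the threshold, a panel of main writers and erasers whatever their values, and up to 3 genes of lowest p past the threshold of each partner list. The rest of the enzyme genes are named to account for all. Some partner genes under this rule are not reported here. Setdb1 was not analysed here. Overlaps with other rows touched 35 of the 54 genes, and 6 of these, Kdm1a, Kdm1b, Kdm2b, Kdm5a, Prmt9 and Suv39h2, overlapped a row of at least 1 FPKM.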

Additional observations from a re-analysis of the deposited data

How the results depend on the processing

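Called enzyme genes kept their direction under all 14 alternatives, but counts moved. Without a filter on low values, 8 enzyme genes were called higher, with 5 methyltransferases higher and 3 lower and 1 DNA enzyme in each direction, against 7.54% higher and 6.73% lower of all 23090 genes then tested. TPM scaling gave 3 higher: 1 methyltransferase, 1 demethylase and 1 DNA enzyme. Cyclic loess left 1 demethylase higher (all genes 17.6% higher, 18.5% lower). With voom on recovered reads 23 were lower, 12 of them methyltransferases, and 1 DNA enzyme was higher (all genes 19.3% higher, 23.3% lower). Leaving out 1 library at a time gave 6 to 12 higher and 9 to 14 lower, with 4 to 7 methyltransferases higher and 2 to 6 lower, 1 to 4 demethylases higher, 1 DNA enzyme higher and 1 to 2 lower (all genes 15.7% to 21.1% higher, 12.5% to 15.6% lower). With a replicate block 8 were higher, 5 of them methyltransferases, and 1 DNA enzyme was higher (all genes 18.9% higher, 14.2% lower). Same-numbered libraries correlated in their deviations at -0.05, 0.03 and -0.04, and differently numbered ones at -0.03 to 0.06. No pairing by number is seen in these values, but they cannot exclude one.

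Some uncalled genes changed sign on the log2 scale. Kdm5a ran from -0.0557 to 0.0128 when 1 library was left out, positive without acetate library 2 or 3, and was at 0.0607 with the length trend removed. Suv39h1 was at -0.0229 under TPM. Ezh2 was at -0.0318 under TPM, -0.0279 under quantile and -0.0309 under cyclic loess scaling. Setd2 was at -0.0721 under TPM, -0.00939 under quantile, -0.0223 under cyclic loess and -0.0370 under voom, and ran from -0.0569 to 0.0616 when 1 library was left out, negative without control library 1 or acetate library 1. The cause was not tested. The share of higher calls over all genes was 56.6% as reported, 45.3% under voom and 36.4% under TPM, and the largest shift of the all-gene median was -0.07, under TPM. The filter at 1 FPKM left Tet1, Kdm4d, Dnmt3l and Prmt8 untested, and Kdm4d, Dnmt3l and Prmt8 had few or no reads.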

Other observations

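Genes that read histone methylation, and genes that make or use the 2-oxoglutarate that demethylases need, were described from 2 further lists. Of 17 tested readers, 6 were called higher and 2 lower, against 22.0% and 16.9% of all genes tested. Msh6, a mismatch repair protein that reads trimethylated H3K36, rose from 29.0 ± 0.252 to 37.2 ± 0.894 FPKM (SD, n = 3, limma adjusted p = 0.000445). Among Polycomb chromobox proteins, Cbx2 rose from 2.70 ± 0.113 to 3.84 ± 0.287 FPKM and Cbx6 from 5.65 ± 0.348 to 7.67 ± 0.618 FPKM, whereas Cbx7, named after its values were seen, fell from 7.69 ± 0.260 to 6.49 ± 0.274 FPKM (limma adjusted p = 0.0127). These chromobox genes thus differed in both directions.

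Of 15 tested genes of 2-oxoglutarate and related metabolism, 8 were called higher and 4 lower, against 22.0% and 16.9% of all genes tested. Egln1, an oxygen-sensing dioxygenase of the same cosubstrate, rose from 28.5 ± 1.06 to 38.6 ± 0.891 FPKM. The cytosolic aminotransferase Got1 fell from 50.4 ± 1.34 to 37.5 ± 0.599 FPKM (limma adjusted p = 0.000268), while its mitochondrial counterpart Got2 rose from 98.5 ± 0.476 to 115.5 ± 1.93 FPKM. Idh1 and Idh2, which make 2-oxoglutarate from isocitrate and were named after their values were seen, were not called (limma adjusted p = 0.855 and 0.958).

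Of 13 tested genes of other SET, Smyd, Prdm and arginine enzymes, 2 were called higher and 2 lower on FPKM as reported. Over all genes tested, 22.0% were called higher and 16.9% lower. Smyd1, a muscle-associated SET domain protein also made in CD8+ T cells, went down from 8.83 ± 0.504 to 6.75 ± 0.408 FPKM (limma adjusted p = 0.00387). Prdm4 went up from 15.5 ± 0.256 to 17.5 ± 0.617 FPKM (limma adjusted p = 0.0138) and Smyd5 from 21.0 ± 0.983 to 23.6 ± 0.433 FPKM (limma adjusted p = 0.0231). Of 8 tested other JmjC genes, 2 were higher and 1 lower, against the same shares. Jmjd6, a hydroxylase of that family, rose from 20.6 ± 0.485 to 26.1 ± 0.107 FPKM (limma adjusted p = 0.000584). Jmjd4 went up from 2.81 ± 0.186 to 3.70 ± 0.246 FPKM (limma adjusted p = 0.0119), and Hif1an, which hydroxylates hypoxia-inducible factors, went down from 9.79 ± 0.442 to 8.55 ± 0.165 FPKM (limma adjusted p = 0.0211).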
